A study of Mus musculus with 12 samples.

Results

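The 8 genes described here serve glucose use and glycogen in hepatocytes: Gckr, Khk, Pklr, Mlxipl, Gys2, Ppp1r3c, Ppp1r3b and Pygl. They were chosen by name for their roles, with earlier results of these data known. They are 8 of the 21490 gene symbols of a table of nascent RNA from mouse liver. All 8 passed the signal threshold of 6 reads per base pair (rpbp) in at least 1 library, which left 6284 symbols for testing. The livers came from C57BL/6 males, 3 to 6 months old, kept in 12 hr of light and 12 hr of dark. Zeitgeber time (ZT) counts hours from lights on, and livers were taken at ZT0, ZT4, ZT8, ZT12, ZT16 and ZT20, with 2 libraries at each, 12 in all. No mutant, treatment or constant darkness was part of the design, so the time points are compared with each other, and feeding, light and the clock cannot be told apart. Nascent-Seq reads RNA that is still bound to RNA polymerase II on chromatin, and the signal of a gene is the reads on its exons divided by the exon length, from both strands together. The labels number the libraries of a time point 1 and 2 but do not say that they came from separate animals, so the p-values measure the spread between these libraries.

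The liver takes up glucose after a meal, traps it as glucose 6-phosphate and either burns it through glycolysis or stores it as glycogen, and it breaks the glycogen down again when food is short. Gckr encodes a regulatory protein of hepatic glucose use, while Khk starts the parallel route for fructose. Pklr makes pyruvate in the last step of glycolysis, and Mlxipl encodes ChREBP, the transcription factor that responds to sugar and binds carbohydrate response elements together with its partner Mlx. Gys2 builds glycogen, Pygl breaks it down, and Ppp1r3b and Ppp1r3c encode scaffolds that bring protein phosphatase 1 to glycogen, where it activates the synthase and inactivates the phosphorylase. Mice eat mostly in the dark.

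RefSeq promoters of 300 bases (250 before a start site and 50 after it, from the GRCm38.p6 annotation) were held for 6 of the 8 genes, in 8 windows, and each window was placed on mm9, the build of the deposited table, by its single exact match in that genome. Gys2 and Ppp1r3b had no entry. Both strands were searched for the E-box CACGTG, which the clock factors CLK and BMAL1 bind, for a carbohydrate response element (CACGNG and CNCGTG with 5 bases between them), for the D-box (TTATGTAA, TTATGCAA or TTACGTAA) and for the element of the REV-ERB and ROR receptors (AANT followed by AGGTCA or GGGTCA). A carbohydrate response element was present at 1 of the 2 start sites of Pklr, 170 to 154 bases before the downstream one, and in 0.0457% of the 32851 promoters searched. The E-box occurred in Ppp1r3c, 104 to 99 bases before the start, in Khk, 71 to 66 bases before it, and at the upstream start of Mlxipl (chr5:135565760), 98 to 93 bases before it. That start of Mlxipl lies outside the deposited gene, whose edge is at chr5:135582783. The Mlxipl window near this edge held no match. The E-box was in 7.15% of all promoters. The D-box (1.78% of promoters) and the receptor element (0.435%) were in none of the 8 windows. These matches of letters say nothing about binding in these livers. The 250 bases before 4 starts are given 5′ to 3′, with the matches in capitals: Pklr for its carbohydrate response element, Ppp1r3c and Khk for an E-box before a gene called rhythmic and one that was not, and Gckr because its rhythm was the strongest of the 8 and no searched motif was found.

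Pklr, downstream start (chr3:88940295-88940544, plus strand): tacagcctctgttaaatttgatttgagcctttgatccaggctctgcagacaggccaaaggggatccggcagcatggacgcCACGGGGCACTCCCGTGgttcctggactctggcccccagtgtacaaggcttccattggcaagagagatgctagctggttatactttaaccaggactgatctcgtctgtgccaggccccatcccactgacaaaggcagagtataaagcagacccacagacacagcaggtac

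Ppp1r3c (chr19:36811095-36811344, minus strand): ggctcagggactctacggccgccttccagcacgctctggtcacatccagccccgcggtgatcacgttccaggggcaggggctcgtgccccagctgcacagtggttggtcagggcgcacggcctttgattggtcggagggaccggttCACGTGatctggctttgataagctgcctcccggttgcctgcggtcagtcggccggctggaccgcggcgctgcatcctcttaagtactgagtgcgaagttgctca

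Khk (chr5:31223682-31223931, plus strand): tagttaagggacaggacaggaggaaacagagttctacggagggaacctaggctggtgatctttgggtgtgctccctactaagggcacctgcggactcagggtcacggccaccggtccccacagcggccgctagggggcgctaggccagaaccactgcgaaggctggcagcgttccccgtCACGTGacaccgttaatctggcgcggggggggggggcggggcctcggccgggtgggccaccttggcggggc

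Gckr (chr5:31599686-31599935, plus strand): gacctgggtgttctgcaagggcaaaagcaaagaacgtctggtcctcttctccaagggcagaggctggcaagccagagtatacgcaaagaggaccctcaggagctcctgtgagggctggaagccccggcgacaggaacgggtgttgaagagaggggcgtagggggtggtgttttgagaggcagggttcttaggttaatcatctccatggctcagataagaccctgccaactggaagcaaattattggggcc

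Some facts of the libraries bear on the values. The libraries of ZT8 and ZT20 were sequenced in 2 lanes and the others in 1 lane, so a difference that involves these times can carry a lane effect, and both contrasts used here have equal numbers of each kind on their 2 sides. The summed rpbp of a library ranged from 118342 to 160545. All 6 hepatocyte markers, such as Alb and Apob, passed 6 rpbp in at least 1 library and summed to between 685.4 and 1684 rpbp. Of 4 listed markers each, 3 of Kupffer cells (18 to 44.3 rpbp in sum), 2 of sinusoidal endothelium (11.9 to 24.1 rpbp) and none of stellate cells (8 to 12.8 rpbp) passed 6 rpbp in any library. Bile duct markers (3 of 4 in the table, 0.8 to 2.2 rpbp) did not pass it, and 1 of 3 blood markers in the table did (2 to 7.2 rpbp in sum). In whole liver, fewer cells of a type and less RNA per cell cannot be told apart.

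The 8 genes differed widely in their level of nascent RNA and in their variation over the day. The rpbp scale divides by exon length but corrects for no other difference between genes, such as GC content. On this scale Mlxipl was highest with a mean of 158 rpbp over the 12 libraries (rank 40 of the tested genes). It was followed by Gckr (71.5), Ppp1r3b (60.0), Khk (33.0), Pygl (31.6), Pklr (31.4), Ppp1r3c (27.6) and Gys2 (15.3). The median level of the 8 was 32.3 rpbp against 7.63 rpbp over all tested genes, and the median SD over the mean was 0.459 against 0.252. Pklr varied most (1.02) and Mlxipl least (0.229), below the median of all tested genes.

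Whether a gene followed a 24-hr rhythm was asked with F24, the share of the variance of the 12 values that a 24-hr cosine carries. A gene was called rhythmic where F24 was above 0.45, a one-sided permutation test gave an unadjusted p under 0.05 and the highest value was over 1.5 times the lowest. Of the 8 genes, 4 met this rule (Gckr, Gys2, Pygl and Ppp1r3c), beside 15.2% of the 6284 tested genes. The median F24 was 0.408 for the 8 and 0.222 over all. The phases of 3 of the 4 lay around lights on (22 hr for Pygl, 0.0146 hr for Ppp1r3c and 1.05 hr for Gckr), and that of Gys2 lay at 7.27 hr, late in the light. After Benjamini-Hochberg adjustment over all tested genes only Gckr of the 8 had a permutation p under 0.05, as did 0.764% of all.

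A pattern need not follow a cosine, so limma's F-test also compared the 6 time points, using log2(rpbp + 1). At an adjusted p under 0.05 it called 3 of the 8 (Gckr, Pklr and Gys2) and 7.65% of all tested genes. Gckr and Gys2 were called by both tests, while Mlxipl, Ppp1r3b and Khk were called by neither. Unadjusted p-values were under 0.05 for 6 of the 8 in the F-test, beside 1737 of all 6284 tested genes.

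**Figure D1:**
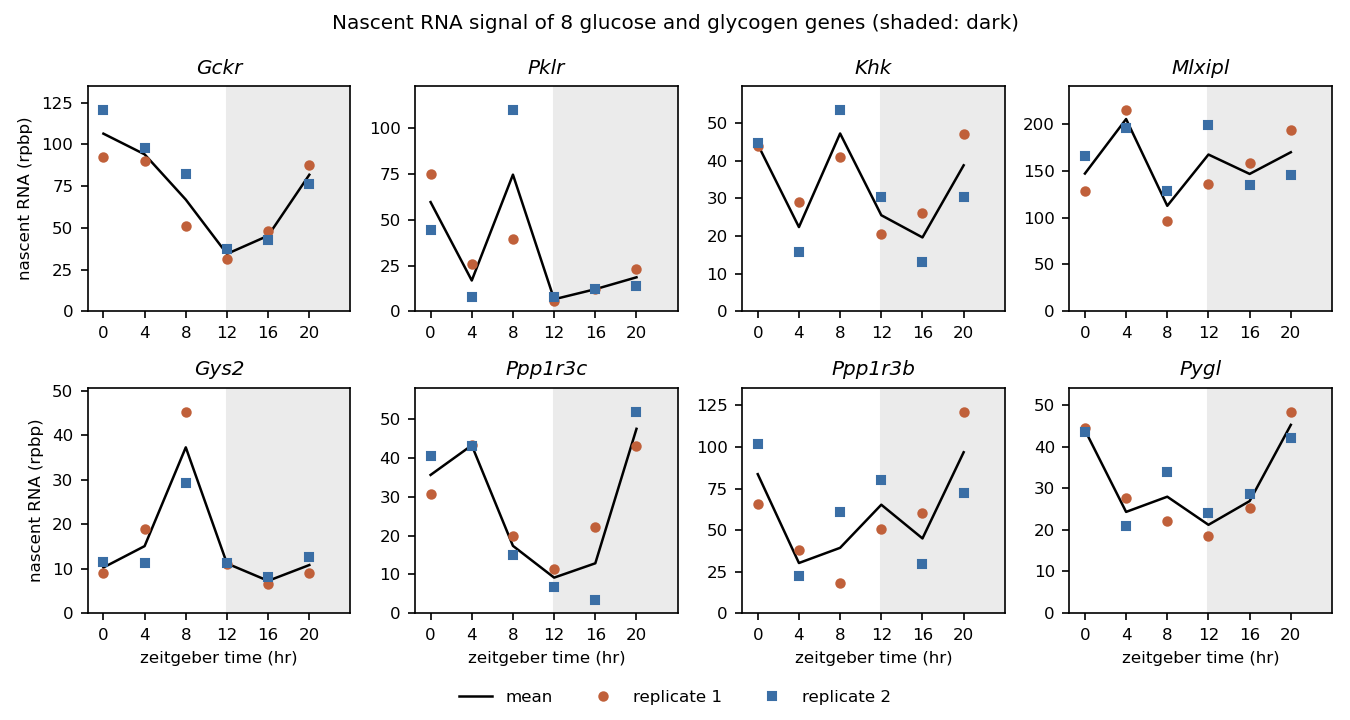
Nascent RNA signal (rpbp, vertical axes from 0) against zeitgeber time (hr) for the 8 genes, with circles for replicate 1, squares for replicate 2, a line through the means of 2 libraries and shading for the dark. Gckr, Pygl and Ppp1r3c were low at ZT12 and high from ZT20 to ZT0, Gys2 stood at 37.3 rpbp at ZT8 against 7.25 to 15.1 rpbp elsewhere, and the replicates of Ppp1r3b lay more than 1.5-fold apart at all 6 time points.

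Gckr (chr5:31599954-31629675, plus strand) fell through the light phase and recovered late in the dark. Its 2 libraries gave 92.4 and 120.6 rpbp at ZT0, 90.3 and 97.9 at ZT4, 51.4 and 82.5 at ZT8, 31.4 and 37.4 at ZT12, 47.9 and 42.7 at ZT16, and 87.4 and 76.3 at ZT20. Both libraries of ZT12 were below all other libraries, and both of ZT0 were above all libraries of ZT8, ZT12, ZT16 and ZT20. The order of the means was ZT0, ZT4, ZT20, ZT8, ZT16 and ZT12, in which ZT0 overlapped ZT4 and ZT20 overlapped ZT8. F24 was 0.878 (one-sided permutation test, p = 9e-05, adjusted p = 0.0314), with phases of 0.211 hr and 1.75 hr in the series of replicates 1 and 2. The F-test gave an adjusted p of 0.0189 in limma. ZT0, with 106.5 rpbp ± 19.9 (SD, n = 2), was 3.10 times ZT12, with 34.4 rpbp ± 4.24 (SD, n = 2).

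The rhythm call of Gckr held under each of 21 alternatives, with F24 between 0.821 and 0.937. Its F-test call was lost without ZT12 replicate 1 (adjusted p = 0.0662 in limma) and without ZT12 replicate 2 (0.0545). The deposited symbol closest to it, Fndc4, lies 1703 bases away on the other strand, had a mean of 8.89 rpbp and correlated weakly with Gckr (r = 0.28 over the 12 libraries on log2(rpbp + 1)). The Gckr promoter printed above held none of the searched motifs.

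Khk (chr5:31224268-31233619, plus strand), whose product phosphorylates fructose, showed no difference between time points that passed a test. It was at 44.0 and 44.6 rpbp at ZT0, 29.0 and 15.7 at ZT4, 41.0 and 53.4 at ZT8, 20.6 and 30.4 at ZT12, 26.2 and 13.0 at ZT16, and 47.1 and 30.4 at ZT20. The highest mean, 47.2 rpbp ± 8.77 at ZT8, and the lowest, 19.6 rpbp ± 9.33 at ZT16 (SD, n = 2), did not overlap in their replicates, while each neighbour in the order of the 6 means did. F24 was 0.125 (one-sided permutation test, p = 0.533) and the adjusted p of limma's F-test was 0.127. Of its neighbours, Emilin1, 621 bases upstream on the same strand, did not pass the signal threshold (mean 2.07 rpbp, r = -0.24), and Cgref1, 1896 bases downstream on the other strand, had a mean of 3.37 rpbp and r = 0.62.

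Pklr (chr3:88940064-88950516, plus strand) had the largest ratio of highest to lowest library of the 8, at 20.4. The libraries gave 74.8 and 44.5 rpbp at ZT0, 25.9 and 7.7 at ZT4, 39.4 and 109.9 at ZT8, 5.4 and 7.7 at ZT12, 11.9 and 12.2 at ZT16, and 23.3 and 13.8 at ZT20. All libraries of ZT0 and ZT8 were above all libraries of the other 4 times, so the signal was high at both times and low at ZT4 between them. ZT8 averaged 74.7 rpbp ± 49.9 and ZT12 6.55 rpbp ± 1.63 (SD, n = 2), an 11.4-fold ratio, and the replicates lay more than 1.5-fold apart at 4 of the 6 time points. Limma's F-test called it (adjusted p = 0.0287). A 24-hr cosine carried little of this pattern (F24 0.209, one-sided permutation test, p = 0.375).

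The F-test call of Pklr was not stable. The adjusted p in limma was 0.0788 without ZT0 replicate 1, 0.0577 without ZT0 replicate 2, 0.0570 without ZT8 replicate 2, 0.0812 without ZT12 replicate 1 and 0.0686 without ZT12 replicate 2. The 2 start sites in RefSeq lie at chr3:88940064, which is also the edge of the deposited gene, and at chr3:88940545, the liver start behind the carbohydrate response element shown above, and the deposited signal sums over exons of both forms. The library of the highest value, ZT8 replicate 2, also had the steepest trend of signal with exon GC content (-1.21 in log2 from the lowest to the highest of 20 bins), and with the GC trend removed from all libraries the Pklr value there was 136 rpbp. In that setting limma's F-test gave Pklr an adjusted p of 0.0386.

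Hcn3, an ion channel gene, ends 180 bases past the end of Pklr on the other strand, and its deposited signal followed that of Pklr from library to library. Hcn3 ranged from 1.4 rpbp in ZT12 replicate 1 to 27.0 rpbp in ZT8 replicate 2, the same libraries that held the extremes of Pklr. The correlation was 0.98 over the 12 libraries. It was the highest with Pklr among the tested symbols that have no clone name and do not overlap Pklr. Limma's F-test gave Hcn3 an adjusted p of 0.0395. Hcn3 passed the signal threshold only at ZT0, at ZT8 and in ZT4 replicate 1. It was thus tested only through libraries in which it was high, and this p-value is given as a description. The 2 genes lie end to end and the signal carries no strand, so RNA that runs past the end of Pklr and RNA of Hcn3 cannot be told apart in this table.

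**Figure D2:**
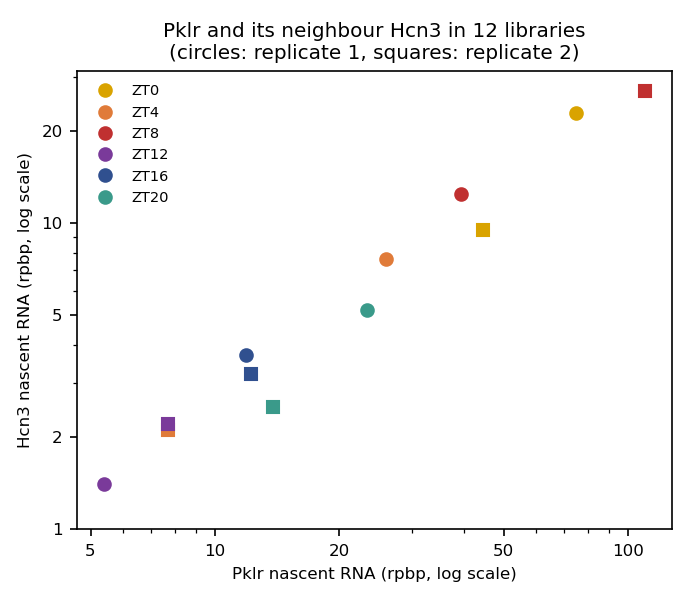
Signal of Hcn3 against that of Pklr in the 12 libraries (rpbp, both axes logarithmic), coloured by time point, with circles for replicate 1 and squares for replicate 2. The points fall along 1 line from ZT12 replicate 1 (5.4 and 1.4 rpbp) to ZT8 replicate 2 (109.9 and 27.0 rpbp), also where the 2 replicates of a time point lie far apart.

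Mlxipl (chr5:135582783-135613792, plus strand), the gene of ChREBP, had the highest level of the 8 and was called by neither test. Its values were 128.0 and 166.0 rpbp at ZT0, 214.7 and 195.7 at ZT4, 96.6 and 128.5 at ZT8, 135.9 and 198.7 at ZT12, 158.2 and 135.0 at ZT16, and 194.0 and 145.5 at ZT20. Replicates were at most 1.46-fold apart, the smallest such limit of the 8. The mean was highest at ZT4 (205.2 rpbp ± 13.4) and lowest at ZT8 (112.6 rpbp ± 22.6; SD, n = 2), and these 2 times did not overlap, whereas ZT20, ZT12, ZT0 and ZT16, in that order, each overlapped the next. The tests gave no call (F24 0.0657, one-sided permutation test, p = 0.726; limma's F-test, adjusted p = 0.254).

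Gys2 (chr6:142371133-142421467, minus strand), the liver glycogen synthase, had a single high time point late in the light. It was at 9.1 and 11.4 rpbp at ZT0, 18.9 and 11.2 at ZT4, 45.2 and 29.3 at ZT8, 11.1 and 11.2 at ZT12, 6.5 and 8.0 at ZT16, and 9.0 and 12.6 at ZT20. Both ZT8 libraries were above all others and both ZT16 libraries below all others. ZT8 averaged 37.3 rpbp ± 11.2 and ZT16 7.25 rpbp ± 1.06 (SD, n = 2), a ratio of 5.14, and ZT4, ZT12, ZT20 and ZT0 between them overlapped in their order. F24 was 0.474 (one-sided permutation test, p = 0.00763, adjusted p = 0.150), with phases of 7.22 hr and 7.39 hr in the series of replicates 1 and 2. Limma's F-test gave an adjusted p of 0.0172.

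F24 of Gys2 lay close to the limit of 0.45, and the rhythm call was lost without ZT16 replicate 1 (F24 0.443) and without ZT8 replicate 2 (0.393), and at F24 0.4497 also with the GC trend removed. The F-test call was lost without ZT8 replicate 1 (adjusted p = 0.0547 in limma). The peak time was one of the 2 that were sequenced in 2 lanes. Over the 4 times of 1 lane alone, which leave out ZT8 and ZT20, limma gave an adjusted p of 0.250. Both libraries of ZT8 had 2 lanes, so the time and a lane effect cannot be told apart there. The other 2-lane time, ZT20, was at 10.8 rpbp ± 2.55 (SD, n = 2), within the range of the 1-lane times.

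Ppp1r3c (chr19:36806221-36811094, minus strand), whose product is the glycogen scaffold PTG, was high from ZT20 to ZT4 and low from ZT8 to ZT16. Its libraries were at 30.7 and 40.6 rpbp at ZT0, 43.4 and 43.2 at ZT4, 19.8 and 14.9 at ZT8, 11.5 and 6.8 at ZT12, 22.2 and 3.5 at ZT16, and 43.2 and 51.9 at ZT20. Every library of ZT20, ZT0 and ZT4 was above every library of the other 3 times. ZT20 (47.6 rpbp ± 6.15) was 5.20 times ZT12 (9.15 rpbp ± 3.32; SD, n = 2). F24 was 0.711 (one-sided permutation test, p = 0.00923, adjusted p = 0.160), and the 2 series gave phases of 23.8 hr and 0.124 hr. The replicates of ZT16 were 6.34-fold apart, and limma's F-test gave an adjusted p of 0.0620 with all libraries, 0.00157 without ZT16 replicate 1 and 0.00593 without ZT16 replicate 2.

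Ppp1r3b (chr8:36438795-36451191, plus strand), the other scaffold and the higher of the pair, was marked by its spread. Its values were 65.5 and 101.8 rpbp at ZT0, 37.8 and 22.5 at ZT4, 17.9 and 60.7 at ZT8, 50.4 and 80.1 at ZT12, 60.1 and 29.8 at ZT16, and 121.1 and 72.6 at ZT20. Replicates were over 1.5-fold apart at all 6 times and every neighbour in the order of the means overlapped. F24 was 0.342 at a phase of 20.2 hr (one-sided permutation test, p = 0.155), and limma's F-test gave an adjusted p of 0.201. ZT20 averaged 96.9 rpbp ± 34.3 and ZT4 30.2 rpbp ± 10.8 (SD, n = 2), and the libraries of these 2 times did not overlap.

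Pygl (chr12:71291798-71328604, minus strand), the liver glycogen phosphorylase, was high at ZT20 and ZT0. It was at 44.5 and 43.4 rpbp at ZT0, 27.6 and 21.0 at ZT4, 22.1 and 33.8 at ZT8, 18.4 and 24.0 at ZT12, 25.3 and 28.5 at ZT16, and 48.3 and 42.1 at ZT20. The 4 libraries of ZT20 and ZT0 were above all 8 others, and among ZT8, ZT16, ZT4 and ZT12 each neighbour in the order overlapped. F24 was 0.667 (one-sided permutation test, p = 0.0136, adjusted p = 0.183), with phases of 22.2 hr and 21.7 hr in the 2 series. ZT20 (45.2 rpbp ± 4.38) was 2.13 times ZT12 (21.2 rpbp ± 3.96; SD, n = 2), and limma's F-test gave an adjusted p of 0.0578, 0.0431 without ZT8 replicate 1 and 0.0478 without ZT8 replicate 2. A clone-named transcript, AK154735, starts 223 bases beyond the 5′ end of Pygl, stayed at or below 4.7 rpbp and had r = 0.84 with it.

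**Figure D3:**
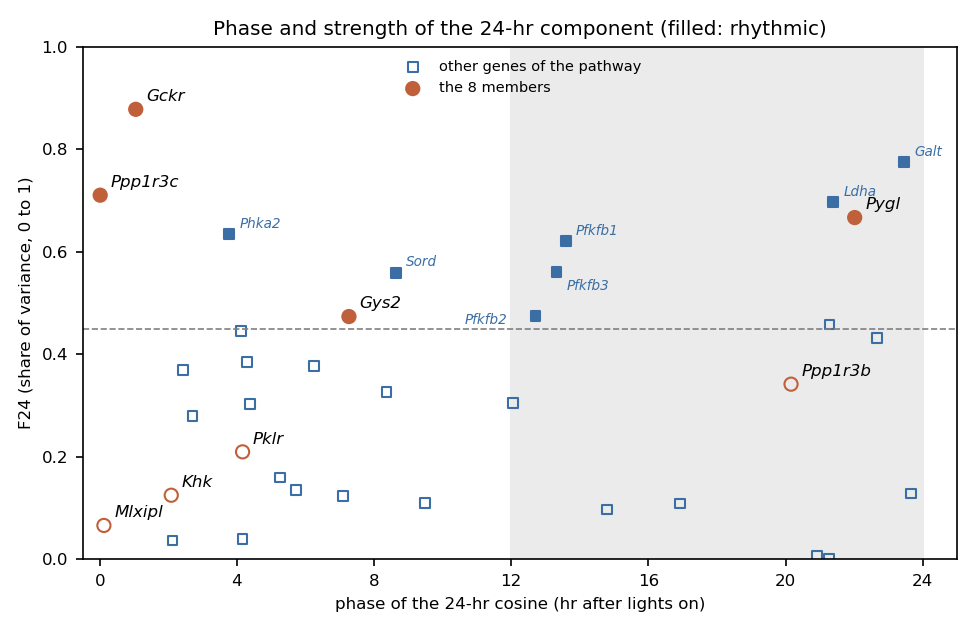
F24 (share of variance, 0 to 1) against the phase of the 24-hr cosine (hr after lights on, dark shaded) for the 8 genes (circles) and the 28 other tested genes of the pathway (squares), filled where the rhythm rule was met and with a dashed line at F24 0.45. Gckr, Ppp1r3c and Pygl lie within 2 hr of lights on, Gys2 at 7.27 hr, and the 3 rhythmic Pfkfb genes between 12.7 and 13.6 hr.

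Lights off was compared with lights on by the contrast of ZT12 and ZT0 in limma, in which all 4 libraries had 1 lane. Gckr, Pklr and Pygl were lower at ZT12, 3 of the 8, where 1.59% of all tested genes were lower. None of the 8 was higher, where 2.85% of all were. With an unadjusted p under 0.05, 4 of the 8 were lower and 0 higher, beside 1156 of all 6284 in either direction. The median difference of the 8 was -0.91 in log2 against 0.03 over all tested genes, and 6 of the 8 estimates were below 0, as were 47.1% of all. Marker sums moved between the same times, from 25.5 and 26.6 rpbp at ZT0 to 40.4 and 40.7 at ZT12 for the 4 Kupffer markers. Those of the 4 stellate markers went from 8 and 10.4 to 12.3 and 12.6. The sums of the 4 markers of sinusoidal endothelium fell from 19.2 and 20.2 to 14.2 and 18.9. Those of the 3 bile duct markers fell from between 1.6 and 1.7 to between 0.8 and 1. Those of hepatocytes were at 685.4 and 1288.5 rpbp at ZT0 and at 1250.3 and 1561.2 at ZT12. No marker in the table was at 0 in all libraries, and the part of these shifts in the differences of the 8 genes was not tested.

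On the log2(rpbp + 1) scale Pklr differed by -2.98 (SE 0.57, adjusted p = 0.0176 in limma), which is 7.87-fold lower at ZT12. Gckr differed by -1.60 (SE 0.25, adjusted p = 0.00733), 3.02-fold lower. Pygl differed by -1.03 (SE 0.24, adjusted p = 0.0428), 2.04-fold lower. The estimate for Ppp1r3c was larger than that of Pygl, at -1.88, but with an SE of 0.58 it did not pass (adjusted p = 0.105). It did so without either library of ZT16 (adjusted p = 0.00416 without ZT16 replicate 1 and without ZT16 replicate 2), which are not part of the contrast and enter through the shared spread. Khk had -0.80 (SE 0.38, adjusted p = 0.303), Ppp1r3b -0.36 (SE 0.56, adjusted p = 0.786), Mlxipl 0.17 (SE 0.26, adjusted p = 0.779) and Gys2 0.12 (SE 0.29, adjusted p = 0.874).

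With 2 libraries a side these calls were fragile. That of Pklr was lost without any 1 of the 4 libraries, at adjusted p-values in limma of 0.172 (without ZT0 replicate 1), 0.0583 (ZT0 replicate 2), 0.114 (ZT12 replicate 1) and 0.0627 (ZT12 replicate 2), while the difference stayed between -3.34 and -2.61. That of Gckr was lost without ZT0 replicate 1 (0.0516), ZT0 replicate 2 (0.0583) or ZT12 replicate 1 (0.0655). That of Pygl was lost in 11 of 19 alternatives, the replicate block among them (adjusted p = 0.0534). Among its libraries left out, the adjusted p was 0.229 without ZT0 replicate 1, 0.139 without ZT0 replicate 2, 0.217 without ZT12 replicate 1, 0.0872 without ZT12 replicate 2, 0.0557 without either library of ZT4 and 0.0667 without either library of ZT20.

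The middle of the dark, when mice feed, was compared with the middle of the light by the mean of ZT16 and ZT20 against the mean of ZT4 and ZT8 in limma, 4 libraries a side. Gys2 was lower in the dark, 1 of the 8, where 1.81% of all tested genes were lower. None of the 8 passed as higher, where 1.07% of all did. With an unadjusted p under 0.05, 2 were higher (Pygl and Ppp1r3b) and 2 lower (Gys2 and Pklr). Over all 6284 tested genes, 1162 had such a p in either direction. The median of the 8 was -0.30 in log2 against -0.09 over all. Over all tested genes 67 were higher and 114 lower as deposited, and 115 higher and 84 lower with the libraries rescaled by their median ratio, under which Gys2 remained called (adjusted p = 0.0214). The stellate marker sum was 8.6 to 9.9 rpbp at ZT4 and ZT8 and 11.4 to 12.8 at ZT16 and ZT20, and its part in these differences was not tested.

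Gys2 differed by -1.30 on the log2(rpbp + 1) scale (SE 0.21, adjusted p = 0.0155 in limma), 2.47-fold lower in the dark. The libraries of the 2 sides overlapped, with ZT20 replicate 2 (12.6 rpbp) above ZT4 replicate 2 (11.2 rpbp). The difference was -0.92 for ZT16 minus ZT4, both of 1 lane (adjusted p = 0.136), and -1.68 for ZT20 minus ZT8, both of 2 lanes (adjusted p = 0.0250). The call was lost without ZT4 replicate 1 (adjusted p = 0.0502) and without ZT20 replicate 1 (0.0650). The 2 scaffold genes had estimates of opposite sign, 1.00 for Ppp1r3b (SE 0.39, adjusted p = 0.213) and -0.35 for Ppp1r3c (SE 0.41, adjusted p = 0.696), and the difference between these 2 estimates was not tested. Pklr had -1.02 (SE 0.40, adjusted p = 0.211), Pygl 0.43 (SE 0.17, adjusted p = 0.226), Gckr -0.36 (SE 0.18, adjusted p = 0.310), Khk -0.25 (SE 0.27, adjusted p = 0.666) and Mlxipl 0.05 (SE 0.18, adjusted p = 0.918).

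**Figure D4:**
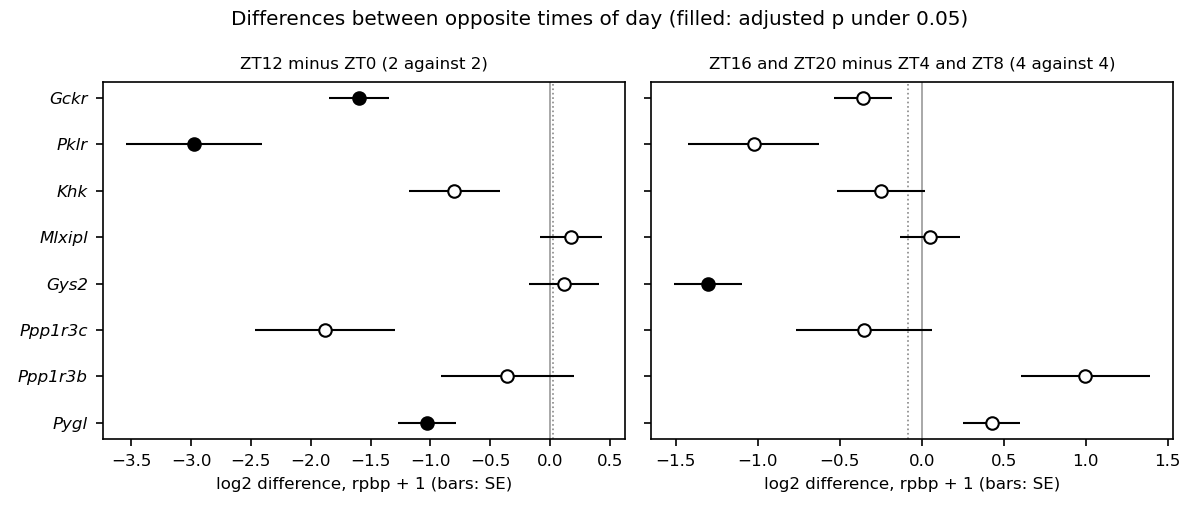
Log2 differences of the 8 genes on the log2(rpbp + 1) scale, ZT12 minus ZT0 on the left (2 against 2 libraries) and the mean of ZT16 and ZT20 minus the mean of ZT4 and ZT8 on the right (4 against 4), with bars of 1 SE, filled points at an adjusted p under 0.05 in limma and a dotted line at the median of all tested genes. Pklr (-2.98), Gckr (-1.60) and Pygl (-1.03) pass on the left, and Gys2 (-1.30) alone passes on the right.

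The other genes of the pathway were counted as a list of 67, of which 64 were in the table and 28 passed 6 rpbp. The rhythm rule was met by 7 of the 28 (15.2% of all tested genes) and the F-test by 7 (7.65% of all), 11 by either (19% of all). None of the 7 rhythmic genes had an adjusted permutation p under 0.05 (0.1002 to 0.244). In ZT12 minus ZT0 in limma, 2 were higher (Pfkfb2 and Pfkfb3) and none lower, where 2.85% and 1.59% of all tested genes were. At an unadjusted p under 0.05, 4 were higher and 5 lower, beside 1156 of all 6284 in either direction. In mid dark minus mid light in limma, 2 were lower (Ugp2 and Phka2) and none higher, where 1.81% and 1.07% of all were. At an unadjusted p under 0.05, 7 were lower and 2 higher, beside 1162 of all 6284 in either direction. By group, either test called 2 of 7 in uptake and phosphorylation, 5 of 8 in glycolysis, 1 of 2 in fructose and sorbitol use, 1 of 3 in sugar sensing and 2 of 8 in glycogen.

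The Pfkfb genes, which set the level of fructose 2,6-bisphosphate and so the pace of glycolysis, peaked in these libraries around lights off, in the 3 of them that passed the signal threshold. Pfkfb2 was at 18 and 19 rpbp at ZT12 and between 7.5 and 12.0 in the other libraries (phase 12.7 hr, F24 0.475; ZT12 minus ZT0 1.03, SE 0.20, adjusted p = 0.0212 in limma). Pfkfb3 was at 6.9 and 15.9 rpbp at ZT12 and at 2.2 and 1.2 at ZT0 (phase 13.3 hr, F24 0.561; ZT12 minus ZT0 2.12, SE 0.44, adjusted p = 0.0251 in limma). Pfkfb3 passed 6 rpbp only at ZT12 and in ZT16 replicate 2 (10.4 rpbp). It was thus tested only through times at which it was high, and its calls and phase are given as a description. Pfkfb1, the liver form, was at 26.6 and 29.9 rpbp at ZT12 and 7.4 and 14.0 at ZT0 (phase 13.6 hr, F24 0.621; ZT12 minus ZT0 1.38, SE 0.41, adjusted p = 0.0887 in limma). Its highest library was ZT16 replicate 2 at 30.1 rpbp, with 12.1 in ZT16 replicate 1, and limma's F-test did not call it (adjusted p = 0.140).

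Further called genes peaked at other times. Ldha, lactate dehydrogenase, ranged from 6.1 to 12.7 rpbp with a phase of 21.4 hr (F24 0.697), and Galt, of galactose use, from 6.5 to 21.9 rpbp with a phase of 23.4 hr (F24 0.775). Sord, which turns sorbitol into fructose, peaked at 8.63 hr (F24 0.559), close to Gys2, with 60.4 and 48.5 rpbp at ZT8. Phka2, a subunit of the kinase that activates Pygl, peaked at 3.77 hr (F24 0.635) and was lower in mid dark by -0.72 in log2 (SE 0.16, adjusted p = 0.0479 in limma).

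Ugp2, which makes the UDP-glucose that Gys2 uses, was at 16 and 36.4 rpbp at ZT8 and between 5.3 and 5.9 at ZT12 and ZT16 (F-test, adjusted p = 0.0219; mid dark minus mid light -1.06, SE 0.24, adjusted p = 0.0444, both in limma). Txnip, a known target of ChREBP, was at 25.4 and 64.8 rpbp at ZT8 and at most 17.9 elsewhere (F-test in limma, adjusted p = 0.0357). Ppp1ca, the phosphatase that the scaffolds bind, ranged from 3.1 to 8.3 rpbp (F-test in limma, adjusted p = 0.0477). It passed 6 rpbp only at ZT0 and in ZT20 replicate 1, so it was tested only through times at which it was high. ZT8 replicate 2 held the highest value of Ugp2 and Txnip, as it did for Pklr.

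Slc2a2, the hepatocyte glucose transporter, was highest at ZT8 (52.0 and 43.8 rpbp), with an adjusted p of 0.0716 in limma's F-test.

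Among the 8 genes, levels correlated most for Gckr and Ppp1r3c (r = 0.78) and for Pklr and Khk (r = 0.78). The most negative correlation was that of Mlxipl and Gys2 (r = -0.45). The correlations are over 12 libraries on log2(rpbp + 1), which share their depth scaling and, in pairs, a time point, and are given as a description. The symbols most like Gckr were Atp7b (r = 0.94), Pdk4 (r = 0.93) and Ptprk (r = 0.92), with phases of 2.15 hr, 23.6 hr and 0.877 hr. Such symbols, here and below, were picked by their correlation. A phase or rhythm call like that of the gene follows from this choice and is no support for it. After Hcn3, the symbols most like Pklr were Pparg (r = 0.96) and Aldh1a7 (r = 0.91), neither called rhythmic. Those most like Gys2 were Cyp2a5 (r = 0.95, phase 6.90 hr), Slc16a7 (r = 0.95, phase 7.79 hr) and Rnf152 (r = 0.93). Pdk4, Cyp2a5 and Slc16a7 had means of 2.57, 2.53 and 2.95 rpbp. They were thus tested only through libraries in which they were high, and their phases are given as a description.

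The closest to Ppp1r3c were Mug2, Insig2 and Leap2 (r = 0.93 each), with phases of 0.841 hr, 22.9 hr and 23.5 hr. The closest to Pygl were Mpp6 (r = 0.92) and Mal2 (r = 0.88), to Ppp1r3b Ebp (r = 0.89), and to Khk Kctd9, Smad2 and Gapdh (r = 0.90 each). The closest to Mlxipl was Baz2a (r = 0.84). With the libraries rescaled by their median ratio to the geometric mean, r was 0.93 for Atp7b with Gckr, 0.94 for Cyp2a5 with Gys2 and 0.79 for Baz2a with Mlxipl.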

How the data were processed

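Nascent RNA was purified from nuclei of mouse liver and freed of polyadenylated RNA, and 12 libraries of 6 time points were sequenced. The authors used CASAVA 1.7 and TopHat, named in the submitters' processing notes, aligned to mm9 and kept uniquely mapped reads. They merged the exons of each gene symbol and deposited the signal, reads on exons per base of exon (rpbp), with libraries brought to an equal read number and values given to 1 decimal. Read counts per gene are not used here, so the depth behind a value is unknown. A low value carries more rounding error, and fold changes of low genes are understated on the log2(rpbp + 1) scale. The table also holds the authors' own rhythm score, phase and p-value per gene, which were not used. A row with no symbol (27919 lines) was left out.

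Each library was assigned by its time label. From the signal, F24 (100000 permutations, Python 3.11.15) and limma 3.58.1 (R 4.3.3) were run on all 6284 symbols above 6 rpbp in at least 1 library, with Benjamini-Hochberg adjustment over all of them. The thresholds for a rhythm follow the study's methods. The code was tested on simulated data. The 8 genes, the 67 other pathway genes, the markers, the motifs and the tests were chosen with earlier results of these data known. Named were the 8 genes, pathway genes called by F24 or the F-test, symbols within 5 kb of the 8, and the 3 symbols most correlated with each. The search for these 3 left out clone names and symbols that overlap the gene or each other. Slc2a2 and Gbe1 were named after their values were seen. Some genes that the rule names are not reported here. Alternatives were thresholds of 3 and 12 rpbp or none, a pseudocount of 0.1, rescaled libraries, a GC correction, log2 values for F24, lane and replicate blocks, adjusted p-values, the lanes' time points alone and each library left out. Same-numbered libraries were not taken as pairs, since their deviations correlated above 0.1 in 5 of 15 pairs of time points (-0.117 to 0.320).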

Additional observations from a re-analysis of the deposited data

How the results depend on the processing

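Of 648 values of the 8 genes under alternatives, 590 kept their direction and side of the threshold, 42 lost a call, 6 gained one and 10 changed sign, all 10 of them uncalled differences. The count of rhythmic genes among the 8 went from 4 to 1 with adjusted permutation p and was 3 to 4 with 1 library left out. That of the F-test went from 3 to 0 with no threshold and to 1 at the 1-lane time points alone, and was 1 to 4 with 1 library left out. Mid dark minus mid light went from 1 to 0 with no threshold and in ZT16 minus ZT4 alone, and was 0 to 1 with 1 library left out. ZT12 minus ZT0 went from 3 to 1 with no threshold, and was 0 to 4 with 1 library left out. With no threshold many more low genes were tested. With the replicate block, which was not taken as a pairing of livers, the counts were 4, 3, 1 and 2, and the call of Pygl at ZT12 minus ZT0 was the one lost.

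The differences that changed sign were small or differed between the pairs of time points. Mid dark minus mid light was 0.32 for Gckr and 1.41 for Ppp1r3c in ZT20 minus ZT8 alone, and -0.49 for Mlxipl in ZT16 minus ZT4 alone. With 1 library left out, that contrast ranged from -0.052 to 0.15 for Mlxipl and from -0.94 to 0.24 for Ppp1r3c, and ZT12 minus ZT0 from -0.10 to 0.44 for Mlxipl and from -0.029 to 0.27 for Gys2. Over all tested genes, 956 rhythmic calls became 509 at 12 rpbp, 2217 with no threshold and 48 with adjusted p, and 481 F-test calls became 133 with no threshold, 120 at the 1-lane time points alone and as few as 170 without 1 library. The 181 calls of mid dark minus mid light became 107 at 12 rpbp, 49 with no threshold, 99 in ZT20 minus ZT8 alone and as few as 27 without 1 library, and the 279 of ZT12 minus ZT0 as few as 26. All 8 genes had an exon GC value, and with the GC trend removed the counts were 3, 3, 1 and 3, Gys2 losing its rhythm call. Over all tested genes that check is void, since 4306 of 6284 (68.5%) had a value.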

Other observations

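The glycogen branching enzyme Gbe1 ranged from 5.0 to 57.5 rpbp over the 12 libraries, a wide range for a gene that was called neither by F24 (0.134, one-sided permutation test, p = 0.671) nor by limma's F-test (adjusted p = 0.0674). A clone-named transcript 2882 bases beyond the 3′ end of Gys2, AK043509, did not pass the signal threshold (0.1 to 2.3 rpbp) and correlated with Gys2 at r = 0.93 over the 12 libraries, with its highest value, 2.3 rpbp, in ZT8 replicate 1, the library in which Gys2 was highest. Its signal and RNA that runs past the end of Gys2 cannot be told apart in this table.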
